A study of Vanessa cardui with 14 samples.

Results

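Hind wings of Vanessa cardui, the painted lady butterfly, were compared between the pupa at 72 h after pupation and the last larval instar. This comparison used 4 libraries of polyadenylated RNA, 2 from 72 h hind wings and 2 from last instar hind wings, chosen by their stage labels from the 14 libraries of the series. The other 10 libraries came from later pupal hind wings and from pupal forewings, with 2 libraries in each group. The later hind wings were at 5 d after pupation, at the onset of red and orange ommochrome pigment and at the onset of black melanin. The forewings gave red and black regions, all labelled as melanin stage. Wing and stage thus cannot be told apart where forewings are set against earlier hind wings. The labels give no treatment, strain or genotype. The labels do not say whether the libraries of a stage came from separate animals or how many wings were pooled. The p-values therefore measure only the spread between libraries of a group, pooled over the 7 groups, and that spread may be technical.

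In butterflies the wing grows during the last larval instar as an imaginal disc, an epithelial sac inside the caterpillar that is patterned before metamorphosis. At pupation the disc everts, the epithelium lies under the pupal cuticle, and scale precursor cells then differentiate and later secrete the chitinous scales that carry the adult colours. The labels name the whole wing and no cell type.

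The table of deposited values held 13876 genes, each identified by the component of the assembly it came from and its number there. No gene names stand beside these identifiers, and 0 of the 13876 were found in the species' RefSeq gene table. Marker genes of wing epithelium, muscle, haemocytes, trachea, fat body, neurons, the cell cycle and cuticle could therefore not be checked, and no function is given to any gene. Values are FPKM, fragments scaled by the length of the gene and the number of mapped fragments in the library. The summed FPKM was 671943 and 644128 in the 72 h libraries and 833658 and 792776 in the larval libraries. Depth, estimated relative to larval replicate 1, was 1.33 and 1.05 in the 72 h libraries and 1.04 in larval replicate 2. By this estimate 72 h replicate 1 was the deepest, and the other libraries were close to each other. Between 8751 and 9338 genes reached 1 FPKM in each of the 4 libraries.

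The 72 h libraries stood apart from each other in their most abundant genes before any comparison with the larva. The most abundant gene of 72 h replicate 1 was at 72903 FPKM there, 10.8% of the library's summed FPKM, and at 16.2 FPKM in 72 h replicate 2. In the larval libraries it was at 10.9 and 13.8 FPKM. The most abundant gene of 72 h replicate 2 was at 44806 FPKM there, 6.96% of the library, and at 88.8 FPKM in 72 h replicate 1. Its larval values were 4.01 and 3.94 FPKM. Each of these genes thus led one 72 h library and ranked 2556th and 661st in the other.

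In all, 165 genes had at least 100 FPKM in one 72 h library and were at least 10-fold lower in the other. Of these, 93 were high in replicate 1, where they held 42.9% of the summed FPKM, and 72 were high in replicate 2, where they held 35.3%. By the same rule 1 gene separated the larval libraries, and 2 to 10 genes separated the replicates of each of the 5 other groups. Among the 10780 genes tested, 765 (7.1%) differed by more than 2 log2 between the 72 h libraries, against 180 (1.67%) between the larval ones. The estimated depths of the 72 h libraries were 1.33 and 1.05. What sets the 72 h libraries apart was not tested.

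**Figure D1:**
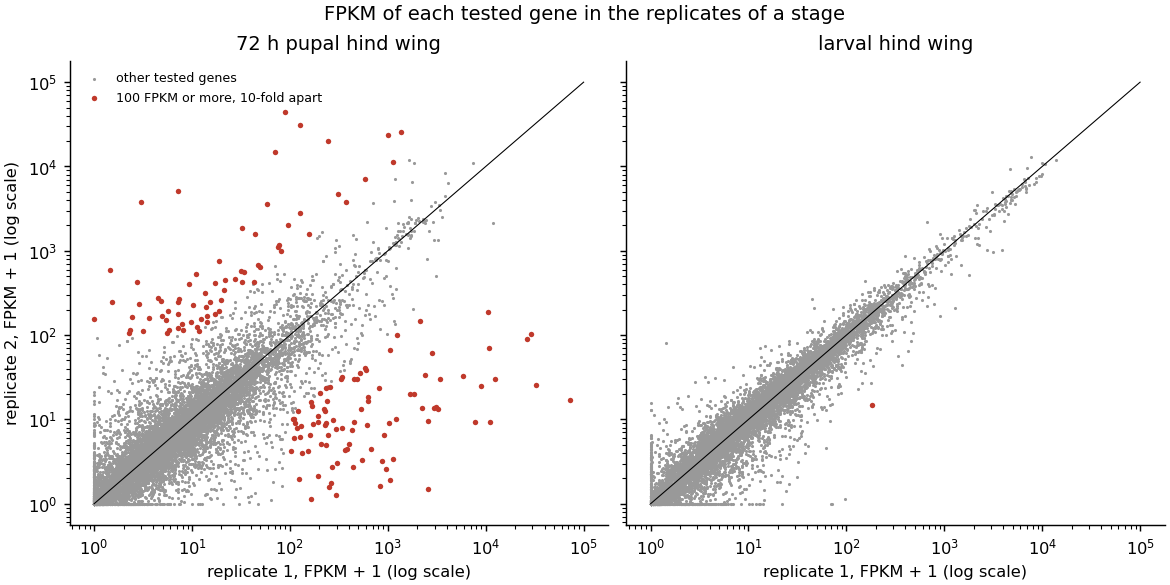
FPKM + 1 of each tested gene in replicate 1 (horizontal axis) and replicate 2 (vertical axis) of the 72 h hind wing (left) and the larval hind wing (right), on log scales. Red points had at least 100 FPKM in one replicate and were at least 10-fold lower in the other; they fill both corners of the 72 h panel, while the larval panel has 1.

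The genes high in each 72 h library had different levels in the stages before and after, which the choice of these genes did not use. The 93 genes high in replicate 1 had a median of 448 FPKM there and 8.64 FPKM in replicate 2, against larval medians of 5.02 and 5.02 FPKM. Among them, 18 were at 100 FPKM or more in both larval libraries, and 9 were so in both 5 d libraries. The 72 genes high in replicate 2 had medians of 13 FPKM in replicate 1 and 376 FPKM in replicate 2, against 1.75 and 1.81 FPKM in the larva. No gene among these 72 reached 100 FPKM in both larval libraries (0 genes), while 27 did so in both 5 d libraries. At 5 d the genes high in 72 h replicate 2 had medians of 46.8 and 55.4 FPKM, and those high in replicate 1 had medians of 7.94 and 7.4 FPKM. At 100 FPKM or more in both ommochrome libraries were 11 of the 93 and 14 of the 72, and in both melanin libraries 9 and 13. Among the other groups, this count was highest at 5 d for the genes of replicate 2. For the genes of replicate 1 the order of larva and 5 d depended on the level. At 10 FPKM or more in both libraries were 38 of the 93 in the larva and 41 at 5 d. The share of all genes at these levels was not counted. Factors that centre the typical gene were 1.80 and 1.85 in the larva and 0.886 and 0.687 at 5 d, so a fixed level favours the larva. These are counts of genes in single libraries and carry no test.

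**Figure D2:**
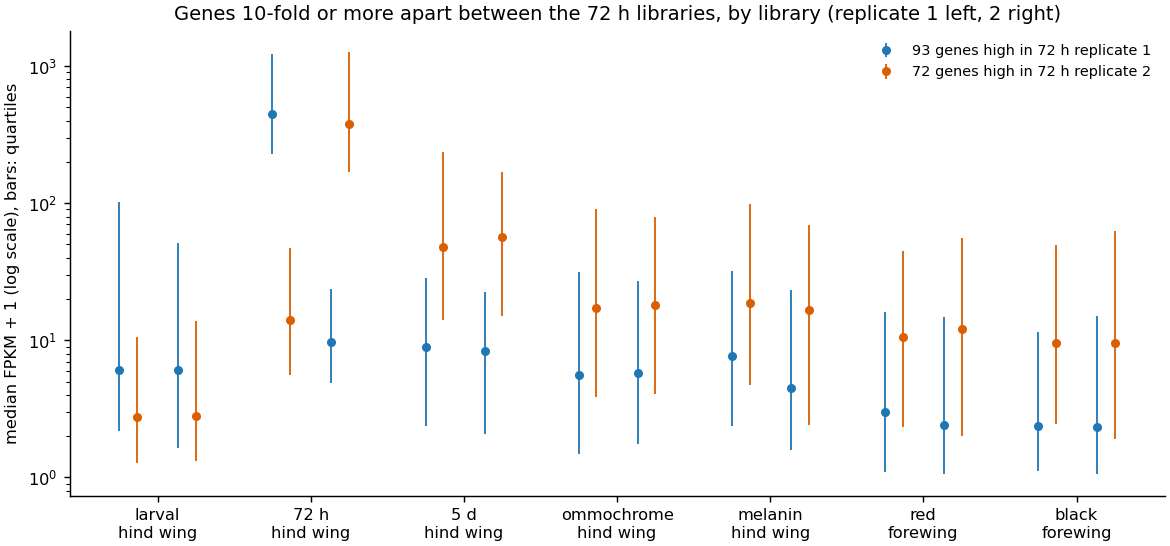
Median FPKM + 1 (log scale, bars from the lower to the upper quartile over genes) of the 93 genes high in 72 h replicate 1 and the 72 genes high in 72 h replicate 2, in each of the 14 libraries, with replicate 1 left of replicate 2 in each group. At 5 d the second set has medians of 46.8 and 55.4 FPKM and the first 7.94 and 7.4 FPKM.

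Transcripts were concentrated in fewer genes in each 72 h library than in either larval library. Genes high in 1 of the 72 h libraries and at least 10-fold lower in the other held 42.9% of replicate 1 and 35.3% of replicate 2. Part of the concentration thus lay in genes of 1 library. Other groups were not counted this way. The genes needed to reach 50% of the summed FPKM numbered 44 and 41 in the 72 h libraries and 85 and 87 in the larval libraries. The 100 most abundant genes held 62.2% and 64.2% of the summed FPKM at 72 h, against 53.3% and 52.5% in the larva. The 10 most abundant held 32.8% ± 1.29 at 72 h and 11.9% ± 0.43 in the larva (SD, n = 2 each), and the groups did not overlap. In an exact permutation test over the libraries, two-sided, this difference of 20.9 percentage points gave p = 0.333, the smallest that 2 against 2 libraries allow. The membership of the list also differed. The 100 most abundant genes of the 72 h libraries had 66 genes in common, those of the larval libraries had 92, and a 72 h and a larval library had 54 to 56 in common. All 4 libraries had 50 in common.

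FPKM are relative to the fragments mapped in a library, so the scaling of the libraries bears on every direction given here. The median change of the tested genes, 72 h minus larva, was -0.73 log2 in the deposited values, -0.48 log2 with equal FPKM totals and 0 with median-of-ratios factors, which centre the typical gene. These factors were 1.80 and 1.85 in the larval libraries and 0.945 and 0.921 in the 72 h libraries. In the other 10 libraries they were 0.687 to 1.146, so the larval libraries were the ones that stood apart. Directions are given on the deposited scale with the median-of-ratios scale beside it. A fall in bulk tissue can reflect fewer cells of a type or less RNA per cell, and these cannot be told apart here.

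In the limma model on log2(FPKM + 1), 5632 of the 10780 tested genes changed between 72 h and the larva at an adjusted p under 0.05 (52.2%). Of these, 831 were higher at 72 h (7.71%) and 4801 were lower (44.5%). Median-of-ratios factors gave 3317 calls (30.8%), 1562 of them higher at 72 h (14.5%) and 1755 lower (16.3%). As background, both 72 h libraries lay above both larval ones in 13% of tested genes, and below both in 58.9%. A test for a change of more than 2-fold called 1727 genes in the deposited values (16%), 395 of them higher (3.66%) and 1332 lower (12.4%). On the median-of-ratios scale it called 964 (8.94%), with 533 higher (4.94%) and 431 lower (4%). The excess of lower genes on the deposited scale was thus absent past 2-fold on the other scale. In the 4 libraries alone, the test for more than 2-fold called 157 genes higher and 535 lower. It called 306 higher and 830 lower without larval replicate 1, and 276 higher and 800 lower without larval replicate 2.

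**Figure D3:**
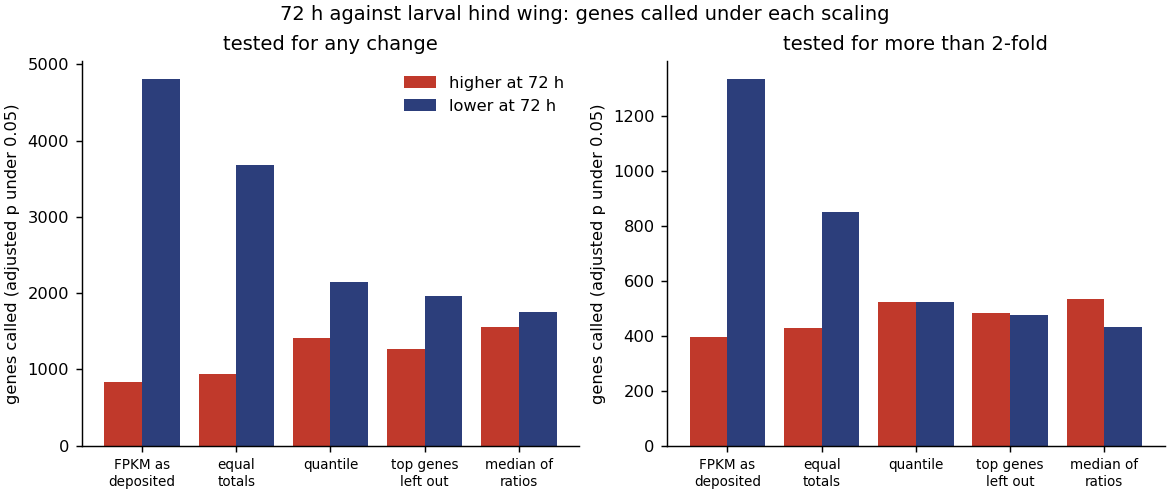
Number of genes called higher (red) or lower (blue) in 72 h than in larval hind wings by limma at an adjusted p under 0.05, for any change (left) and for a change of more than 2-fold (right), under each of 5 scalings. For any change, lower calls run from 4801 as deposited to 1755 with median-of-ratios factors, and higher calls from 831 to 1562.

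The genes that kept their call under every scaling and with either 72 h library left out numbered 525 higher (4.87%) and 1733 lower (16.1%). Past 2-fold they numbered 266 higher (2.47%) and 428 lower (3.97%). Of the 831 higher genes, 550 were also called higher without replicate 1 and without replicate 2, and of the 4801 lower genes 3527 were also called lower both ways. Without replicate 1, 438 genes were called higher that were not called higher without replicate 2, and in the converse case there were 354. In 88 genes the 2 fits called opposite directions, so that one 72 h library put the gene above the larva and the other put it below.

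Among called genes with the largest changes, rises outnumbered falls on both scales, and by more once the typical gene was centred. In the deposited values, 151 called genes rose and 102 fell by at least 5 log2, which is 32-fold on the log2(FPKM + 1) scale. With median-of-ratios factors these counts were 181 and 61. Rises in the deposited values included genes far apart between the 72 h libraries, such as 1 at 125 FPKM in replicate 1 and 31402 FPKM in replicate 2. At 3 log2 or more the order depended on the scale. Deposited values gave 315 higher and 429 lower genes, and median-of-ratios factors gave 394 and 214. At 2 log2 or more the counts were 475 and 1227 as deposited, and 670 and 464 with median-of-ratios factors. At 1 log2 or more the deposited values gave 750 higher and 3917 lower genes, and median-of-ratios factors gave 1277 and 1284.

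Of the 165 genes that separated the 72 h libraries, 39 of the 93 high in replicate 1 were called higher than in the larva, 3 were called lower and 50 were not called. On the median-of-ratios scale there were 41 higher and 1 lower. Of the 72 high in replicate 2, 47 were called higher, 0 lower and 23 were not called, and 48 and 0 with median-of-ratios factors. Over all tested genes 7.71% were higher and 44.5% lower in the deposited values, and 14.5% and 16.3% with median-of-ratios factors. Since these genes were chosen for a high level in a 72 h library, higher calls are partly built in, and nothing is read from these counts. The remaining 3 genes did not pass the filter. Both 72 h libraries lay above both larval libraries in 46 of the 93 genes and in 51 of the 72, against 13% of all tested genes, which the same choice favours. With these genes left out of the model, a step chosen after seeing the data, limma called 751 genes higher and 4823 lower at 72 h among 10618 tested.

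The share of genes called varied with a gene's abundance in the other 10 libraries. These libraries do not enter the change itself, but they enter the filter and the estimate of spread. Changes of low genes are also understated on the log2(FPKM + 1) scale, so the share called at each level is partly built in. Among the 534 tested genes with a mean of 100 to 1000 FPKM there, 18% were higher and 51.1% lower at 72 h in the deposited values, and 23.6% and 23.2% with median-of-ratios factors. Among the 3104 genes of 1 to 5 FPKM, 5.64% were higher and 40.2% lower, and 11.6% and 13.3% with median-of-ratios factors. Genes under 1 FPKM on average in the other libraries (1659 genes) were higher in 8.44% and lower in 29.2%, and in 10.1% and 17.1% with median-of-ratios factors. Among the 85 genes of 1000 FPKM or more, 24.7% were higher and 49.4% lower, and 30.6% and 17.6% with median-of-ratios factors. Genes of 100 to 1000 FPKM were thus called more often than genes of 1 to 5 FPKM. With median-of-ratios factors they were called about as often higher as lower.

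A set of 65 genes had at least 500 FPKM in every one of the other 10 libraries. In the comparison 45 of them were lower at 72 h and 17 higher in the deposited values, against 44.5% lower and 7.71% higher over all tested genes. Their median FPKM was 1598 and 1855 in the 72 h libraries and 4828 and 4477 in the larval libraries. In the other 10 libraries the medians were 891.4 to 1781 FPKM, so the larval medians stood far above the rest and the 72 h medians were near the top of this range. The median change was -1.43 log2, with quartiles of -1.71 and 1.39. With median-of-ratios factors 14 were lower and 18 higher, against 16.3% lower and 14.5% higher over all tested genes, and the median change was -0.46 log2. Together they held 15.9% and 27.6% of the summed FPKM at 72 h, against 34.2% and 33.6% in the larva, and 11 of them differed by more than 2 log2 between the 72 h libraries, against 0 between the larval ones.

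Named genes were those with the largest change in mean FPKM among genes called in the same direction under every scaling. Genes among the 10 most abundant of any library were absent from one of these scalings and so were not eligible. Gene c21520_g2 had 4142 and 6393 FPKM in the 72 h libraries and 4.98 and 7.48 FPKM in the larval libraries. The 72 h libraries were within 2-fold of each other and far above every other library. It rose by 9.50 log2 (SE 0.448, limma adjusted p = 5.43e-07), and by 10.3 log2 with median-of-ratios factors. At later hind wing stages it had 7.72 and 6.07 FPKM at 5 d, 4.98 and 5.33 FPKM at ommochrome onset, and 17.04 and 4.88 FPKM at melanin onset. In the forewing regions it was at 0.05 to 0.24 FPKM. This gene was thus abundant at 72 h alone among the 7 groups.

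Gene c25450_g1 had 3793 and 8302 FPKM in the 72 h libraries and 2210 and 1418 FPKM in the larval libraries. All 72 h values lay above the larval ones, but the 72 h libraries differed more than 2-fold. It rose by 1.66 log2 (SE 0.366, limma adjusted p = 0.00373), and by 2.63 log2 with median-of-ratios factors (adjusted p = 0.000455). The test for more than 2-fold on the deposited values gave adjusted p = 0.201. In the 4 libraries alone the call was lost (adjusted p = 0.0598). The change was 2.23 log2 without 72 h replicate 1 and 1.10 log2 without 72 h replicate 2. Its means in the other groups were 934.3 to 1954 FPKM, so that it was abundant in every group and highest at 72 h.

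Gene c6158_g1 had 4.26 and 8.96 FPKM in the 72 h libraries and 7218 and 7235 FPKM in the larval libraries. The larval libraries were nearly equal, and the gene was low at 72 h. It fell by 9.96 log2 (SE 0.873, limma adjusted p = 1.74e-05), and fell by 9.01 log2 with median-of-ratios factors. The 5 d libraries were at 29.9 and 121.9 FPKM, above both 72 h libraries, and the forewing regions were at 0.38 to 0.96 FPKM.

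Gene c19231_g1 had 1724 and 2357 FPKM in the 72 h libraries and 6548 and 7093 FPKM in the larval libraries. The groups did not overlap, and the gene stayed abundant at 72 h. It fell by 1.76 log2 (SE 0.275, limma adjusted p = 0.000551) in the deposited values and by 0.79 log2 with median-of-ratios factors (adjusted p = 0.027). The test for more than 2-fold did not call it (adjusted p = 0.0604). Its means in the other 5 groups were 1002 to 1797 FPKM, all below the 72 h mean of 2041 ± 448 FPKM (SD, n = 2), and the higher of these means was within that SD.

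**Figure D4:**
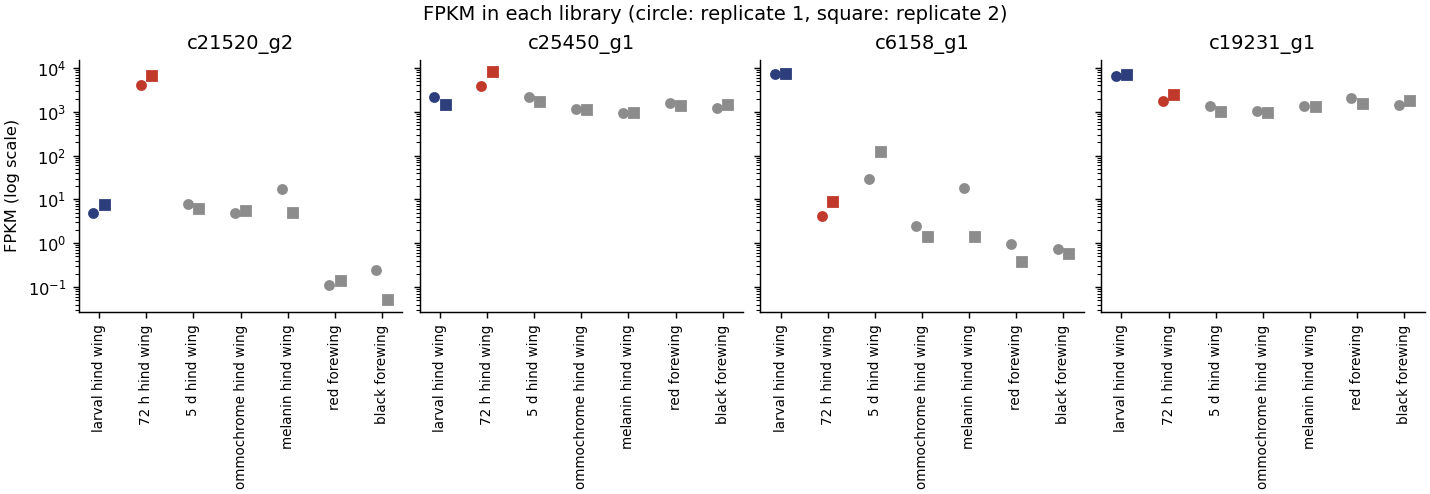
FPKM (log scale) of the 4 named genes in each of the 14 libraries, with circles for replicate 1 and squares for replicate 2, 72 h libraries in red, larval libraries in blue and the other groups in grey. Gene c21520_g2 is high at 72 h alone, at 4142 and 6393 FPKM, and c6158_g1 in the larva alone, at 7218 and 7235 FPKM.

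Genes very abundant in 1 of the 72 h libraries were also listed at low values elsewhere. A group of 10 genes had at least 5000 FPKM in 72 h replicate 1 and at most 1% of that level in every library of another group. In the larval libraries their median level was 0.0158% and 0.0194% of that in 72 h replicate 1, and in the 6 later hind wing libraries it was 0.0119% to 0.0478%. In the 4 forewing libraries it was 0% to 0.00054%. For these genes the hind wing levels were thus above the forewing levels. In FPKM the medians were 2.81 and 4.56 in the larva and at most 0.115 in the forewings. A group of 5 genes was chosen likewise from 72 h replicate 2, and c21520_g2 was one of them. In the larval libraries their medians were 0.00708% and 0.00879% of the level in 72 h replicate 2. These lay within the range of the forewing libraries, 0.0029% to 0.024%. In the 6 later hind wing libraries the medians were 0.0226% to 0.121%, and only the lowest of these lay within the forewing range. For c21520_g2 the 8 other hind wing libraries were at 0.0926% to 0.323% of the 72 h mean, and the forewing libraries at 0.000949% to 0.00456%. Whether these low values are transcripts of those wings or reads of another library was not tested. A larval level of a few FPKM for a gene that was very abundant at 72 h is given with this limit, and the same holds for c6158_g1 at 72 h.

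Genes that went from off to on, or from on to off, were counted by level, with on as at least 5 FPKM in both libraries of a stage and off as under 1 FPKM in both. Switched on at 72 h were 124 genes (0.894% of 13876), with medians of 30.6 and 37.1 FPKM in the 72 h libraries and 0.22 and 0.22 FPKM in the larva. Their 72 h means ran from 5.1 to 7461 FPKM, 47 genes reached 100 FPKM, and 22 were listed at 0 in both larval libraries. Switched off at 72 h were 132 genes (0.951%), with medians of 0.36 and 0.26 FPKM at 72 h and 18.3 and 18 FPKM in the larva. Among these, 26 had a larval mean of 100 FPKM or more. With median-of-ratios factors the counts were 175 on and 86 off.

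The 72 h libraries decided many of these switches. By 72 h replicate 1 alone 196 genes were switched on, and by replicate 2 alone 227. Replicate 1 without replicate 2 gave 72 of them and replicate 2 without replicate 1 gave 103. Of the genes on in one 72 h library only, 13 of the 72 and 26 of the 103 were also on in both 5 d libraries. Over all 13876 genes 34.7% were on in both 5 d libraries, a larger share than in either of these sets. By 72 h replicate 1 alone 194 genes were switched off, and by replicate 2 alone 252. Without larval replicate 2 the count of genes switched off was 202. Among the 124 genes on in both 72 h libraries, 30 were still at least 10-fold apart between them.

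The genes switched on at 72 h were divided at 5 d between genes that were on and genes that were not. Of the 124, 61 (49.2%) were on in both 5 d libraries, against 34.7% of all 13876 genes. At ommochrome onset 59 (47.6%) were on, against 41% of all genes, and at melanin onset 52 (41.9%), against 39.8%. In the red forewing region 39.5% were on, against 37.7% of all genes, and in the black region 34.7%, against 35.7%. The share of genes on was thus furthest from that of all genes at 5 d and near it in the melanin and forewing groups. In at least 1 of the 3 later hind wing stages 75 were on, for which the share of all genes was not counted. In 32 of the 124 genes all 10 other libraries were on, against 3799 of the 13876 genes, and 15 (12.1%) were under 1 FPKM in all 10, against 20.7% of all genes. Of the 132 genes switched off, 17 (12.9%) were on at 5 d, 24 (18.2%) at ommochrome onset and 28 (21.2%) at melanin onset. These lay below the shares of all genes at those stages. In at least 1 of these stages 36 of the 132 were on, likewise without a share of all genes. In 38 (28.8%) all 10 other libraries were under 1 FPKM, so that these genes were seen above this level in the larva alone. In the red and black forewing regions 35.5% and 39.5% of the genes switched on were under 1 FPKM in both libraries, against 34.8% and 36.4% of all genes. Of the genes switched off, 58.3% and 59.1% were under 1 FPKM there, and 22% were on in each region. These later levels are descriptions without a test.

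**Figure D5:**
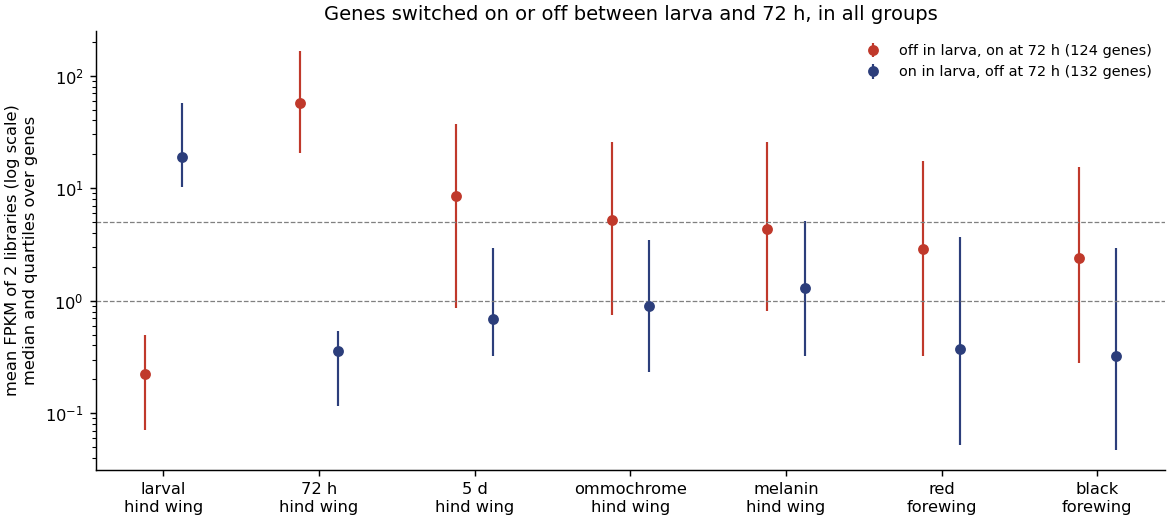
Mean FPKM of the 2 libraries of each group (log scale, median and quartiles over genes) for the 124 genes switched on and the 132 genes switched off at 72 h. Dashed lines mark the levels for off (1 FPKM) and on (5 FPKM); the switched-on genes have a median of 8.51 FPKM at 5 d and the switched-off genes 0.69 FPKM.

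Genes of the same assembled component can be related sequences or pieces of one locus, and reads could be divided between them. Among 593 components with at least 2 called genes, 59 (9.95%) held a gene that was higher and a gene that was lower at 72 h. With median-of-ratios factors 34 components did so. Genes alone in their component were called in 54.3% of 7005 cases, and genes that shared one in 48.5% of 3775. Membership was counted among the deposited genes only, and by this count all 4 named genes were alone in their component. The identifier of c21520_g2 ends in 2, so other genes of its component may be missing from the deposited values.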

How the data were processed

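The deposited table gives FPKM, made by the authors and rounded to 2 decimals, with 1 column for each of the 14 libraries. The submitters' processing notes name Bowtie as aligner. The series' title speaks of a de novo transcriptome. For the assembler, the counting program, the gene filter and further scaling, the sources used here say nothing. Absolute depth is unknown. Relative depth was estimated from steps between 0.15 and 3 FPKM in the 6 pairs of the 4 libraries, where the largest residual was 0.011 log2, a method tested on simulated data for depths within 2-fold.

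The 10780 genes that reached 1 FPKM in 2 or more of the 14 libraries were tested on log2(FPKM + 1) with limma 3.58.1 in R 4.3.3. The fit had 7 group means, no covariate, 7 residual degrees of freedom and a prior following mean expression (2.88 prior degrees of freedom). Tests were two-sided, with Benjamini-Hochberg adjustment over all tested genes and a threshold of 0.05. limma's treat function tested for changes past 2-fold. A log2 change on this scale understates that of low genes. All groups share one estimate of spread. Between replicates, log2 differences had an SD of 1.19 at 72 h and 0.611 in the larva, so the p-values may be too small. The model was checked on simulated data with the same spread in every group, so the check does not bear on this difference in spread.

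With no names for the identifiers, 2 genes that rose and 2 that fell are named: those with the largest change in mean FPKM among genes called the same way under all 5 scalings, with groups that do not overlap. The scalings, pseudocounts, filters, libraries and weights tried are given in the closing section. The comparison and the gene sets were chosen with earlier results of these data known. Descriptions and figures used Python 3.11.15, NumPy 2.4.6, pandas 2.3.3, SciPy 1.17.1 and matplotlib 3.10.9.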

Additional observations from a re-analysis of the deposited data

How the results depend on the processing

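Against 5632 genes called, 3317 were called with median-of-ratios factors, 3557 with quantile normalization (1410 higher, 2147 lower), 3227 when the most abundant genes were left out and totals made equal, and 4219 to 5540 with a library of the comparison left out. With group weights 4455 were called (707 higher and 3748 lower), with weights of 0.34 for 72 h and 1.14 for larval libraries. Chosen after seeing the data, median-of-ratios factors gave 3591 without 72 h replicate 1 and 3034 without replicate 2. Past 2-fold, against 1727, the counts in the same order were 964, 1046, 960 and 1076 to 1948, with 1132 at a pseudocount of 5 FPKM, 692 in the 4 libraries alone and 1088 with median-of-ratios factors without replicate 2. Components with both directions (59) numbered 34, 37, 32 and 35 to 70, and 22 in the 4 libraries alone. Same-numbered 72 h and larval libraries did not deviate together (correlation 0.017 over 10780 genes). The labels state no pairing, and the main fit used none. This correlation alone cannot decide whether libraries were paired. A replicate block in the 4 libraries called 2481 genes, 451 past 2-fold and 10 components, with fewer degrees of freedom, and in all 14 libraries the block called 5605. Of the named genes, c25450_g1 lost its call in the 4 libraries with and without the block (adjusted p = 0.0878 and 0.0598). The other 3 kept theirs in 17 of 17 alternatives. Genes switched on (124) numbered 47 with on at 10 and off under 0.5 FPKM, 192 with on at 2 FPKM, and 134 to 227 with a library left out. Genes switched off (132) numbered 45 and 299 by these levels, 86 with median-of-ratios factors and 177 to 252 with a library left out. A fit without a library leaves a lone sample, which is assumed to vary like the other groups. The 2 libraries a stage limit every test.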

Other observations

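Across the 10780 tested genes, which are not independent, 72 h replicate 1 had a Spearman correlation of 0.732 with the larval mean and 0.761 with the 5 d mean, and 72 h replicate 2 had 0.696 and 0.774. The larval replicates had one of 0.959 with each other and the 72 h replicates 0.863.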
